A study of Mus musculus with 6 samples.

Results

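Plasma cell identity and antibody secretion genes were described here in long-term hematopoietic stem cells (LT-HSCs), the marrow cells that sustain blood formation. The 10 genes are Prdm1, Irf4, Xbp1, Pou2af1, Mzb1, Txndc5, Derl3, Sdc1, Tnfrsf17 and Tnfrsf13b, out of 19938 genes with a probe set of their own on the arrays. They were chosen by the log2 values of these 6 arrays, as plasma cell genes seen to be lower in Lxn-/- than in WT pools, so their genotype differences are a description and are given without a test. Each gene was found by its platform symbol, and each had 1 probe set. Lxn-/- mice carried a deletion of exons 2 to 4 of the latexin gene and lacked its protein, and WT mice had an intact gene. Latexin is an inhibitor of metallocarboxypeptidases. All donors were C57BL/6 females of 8 to 12 weeks. Cells were sorted from bone marrow as negative for lineage antigens, CD34 and a marker that the labels call Flt2, and positive for Sca1 and c-Kit. Each genotype was represented by 3 arrays, each from a pool of about 100000 cells of 10 to 20 mice, so the spread between arrays is the spread between pools and not between single animals.

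Plasma cells are the terminally differentiated B cells that secrete antibody. Blimp-1 (Prdm1) and IRF4 direct the change from B cell to plasma cell, XBP1 expands the endoplasmic reticulum for secretion, and proteins of that compartment fold, link and quality-check the antibody chains. On the cell surface, syndecan 1 (Sdc1, also CD138) marks the cells, and the receptors BCMA (Tnfrsf17) and TACI (Tnfrsf13b) bind the cytokines BAFF and APRIL.

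The promoters of 4 of the genes are shown because they hold motifs known from this pathway. Each is the RefSeq window of GRCm38.p6 from 250 bases before to 50 bases after the annotated start, and 9 of the 10 genes had such a window, with 11 windows in all because Txndc5 had 3 starts. Capitals mark ATTTGCA, which is the octamer of immunoglobulin promoters without its last letter, in Pou2af1 and Prdm1, the unfolded protein response element TGACGTGG in Pou2af1 and Txndc5, and the endoplasmic reticulum stress element, which is CCAAT and CCACG parted by 9 bases and is read on the other strand, in Derl3. The Pou2af1 window is chr9:51213440-51213739 on the plus strand, that of Prdm1 chr10:44458699-44458998 on the minus strand, that of Txndc5 chr13:38527865-38528164 on the minus strand and that of Derl3 chr10:75893148-75893447 on the plus strand.
Pou2af1: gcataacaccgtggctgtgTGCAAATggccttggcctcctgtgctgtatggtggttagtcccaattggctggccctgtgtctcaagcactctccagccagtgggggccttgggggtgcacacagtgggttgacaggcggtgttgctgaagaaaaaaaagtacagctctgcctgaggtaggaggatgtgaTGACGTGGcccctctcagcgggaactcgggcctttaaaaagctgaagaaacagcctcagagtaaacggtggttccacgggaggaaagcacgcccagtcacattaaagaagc
Prdm1: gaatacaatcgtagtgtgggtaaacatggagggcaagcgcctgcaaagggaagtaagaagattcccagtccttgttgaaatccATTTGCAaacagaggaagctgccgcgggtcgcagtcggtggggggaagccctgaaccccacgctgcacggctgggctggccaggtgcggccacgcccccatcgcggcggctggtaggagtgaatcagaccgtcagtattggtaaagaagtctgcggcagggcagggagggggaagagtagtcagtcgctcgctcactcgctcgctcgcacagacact
Txndc5: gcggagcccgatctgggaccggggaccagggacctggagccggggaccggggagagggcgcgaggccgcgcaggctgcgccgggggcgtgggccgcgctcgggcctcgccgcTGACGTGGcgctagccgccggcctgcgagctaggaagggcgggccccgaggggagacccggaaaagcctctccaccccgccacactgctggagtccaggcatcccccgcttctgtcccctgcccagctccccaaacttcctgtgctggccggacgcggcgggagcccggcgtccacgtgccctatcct
Derl3: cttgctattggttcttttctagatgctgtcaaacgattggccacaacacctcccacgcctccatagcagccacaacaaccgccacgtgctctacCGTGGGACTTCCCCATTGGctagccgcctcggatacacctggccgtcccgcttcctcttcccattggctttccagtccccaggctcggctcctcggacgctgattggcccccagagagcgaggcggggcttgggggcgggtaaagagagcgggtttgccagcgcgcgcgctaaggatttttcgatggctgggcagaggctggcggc

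The matches began 231 bases (TGCAAAT) and 61 bases (TGACGTGG) before the annotated start of Pou2af1, 167 bases before that of Prdm1, 138 bases before that of Txndc5 and 156 bases before that of Derl3. On either strand, ATTTGCA occurred in 4.02% of all 32851 windows and in 2 of the 11 windows of these genes, and the full octamer ATTTGCAT in 1.74% of all windows and in 0 of the 11. TGACGTGG occurred in 0.676% of all windows and in 2 of the 11, and the stress element in 0.119% and in 1. GGAA and GAAA parted by 2 bases, a composite site of IRF and ETS factors, occurred in 2.72% of all windows and in 0 of the 11. A pair of GAAA parted by 2 bases, part of the sites that IRF factors and Blimp-1 bind, occurred in 3.44% and in 2, those of Tnfrsf17 and of another Txndc5 start, and the TATA box TATAAA in 13.6% and in 2, those of Irf4 and Tnfrsf17. These motifs were chosen after the windows had been seen, and a match is a match of letters and does not show binding.

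All 10 genes had a lower mean in Lxn-/- than in WT pools, and for all 10 the 3 Lxn-/- values lay below the 3 WT values. Over all genes, 56% of differences lay below 0 and 5.49% of genes had all Lxn-/- values below all WT values. Since the genes were picked for this contrast, nothing is read from their counts. Their median difference was -0.58 on the log2 scale, Lxn-/- minus WT, beside a median of -0.01 over all genes. In the limma fit over 23410 probe sets, 0% passed an adjusted p of 0.05, and so 0 of the 10 genes did. The lowest adjusted p of the whole fit was 0.993, and at an unadjusted p under 0.05 there were 570 lower and 344 higher probe sets. RNA of whole pools was measured, so fewer cells of a type and less RNA per cell cannot be told apart.

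The signal of Lxn itself was 8.66, 8.78 and 8.78 in Lxn-/- pools and 8.99, 9.09 and 9.55 in WT pools, on the log2 scale that applies to all levels here. The labels do not say where its probes lie relative to the deleted exons, and probes outside them check nothing. All 10 genes were above a background level of 6.93, below which 95% of 1205 probe sets of odorant and pheromone receptors lay, and by 2.20 (Prdm1) to 5.54 (Xbp1). All 14 measured markers of LT-HSCs were above that level too, among them Kit at 12.81, 12.90 and 12.96 in Lxn-/- pools and 12.80, 12.86 and 12.90 in WT pools. So was Cd34, the transcript of an antigen that the gate excludes, at 13.21, 13.01 and 13.30 in Lxn-/- pools and 13.08, 13.15 and 13.14 in WT pools. Kit and Cd34 were chosen for mention after their values were seen.

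**Figure D1:**
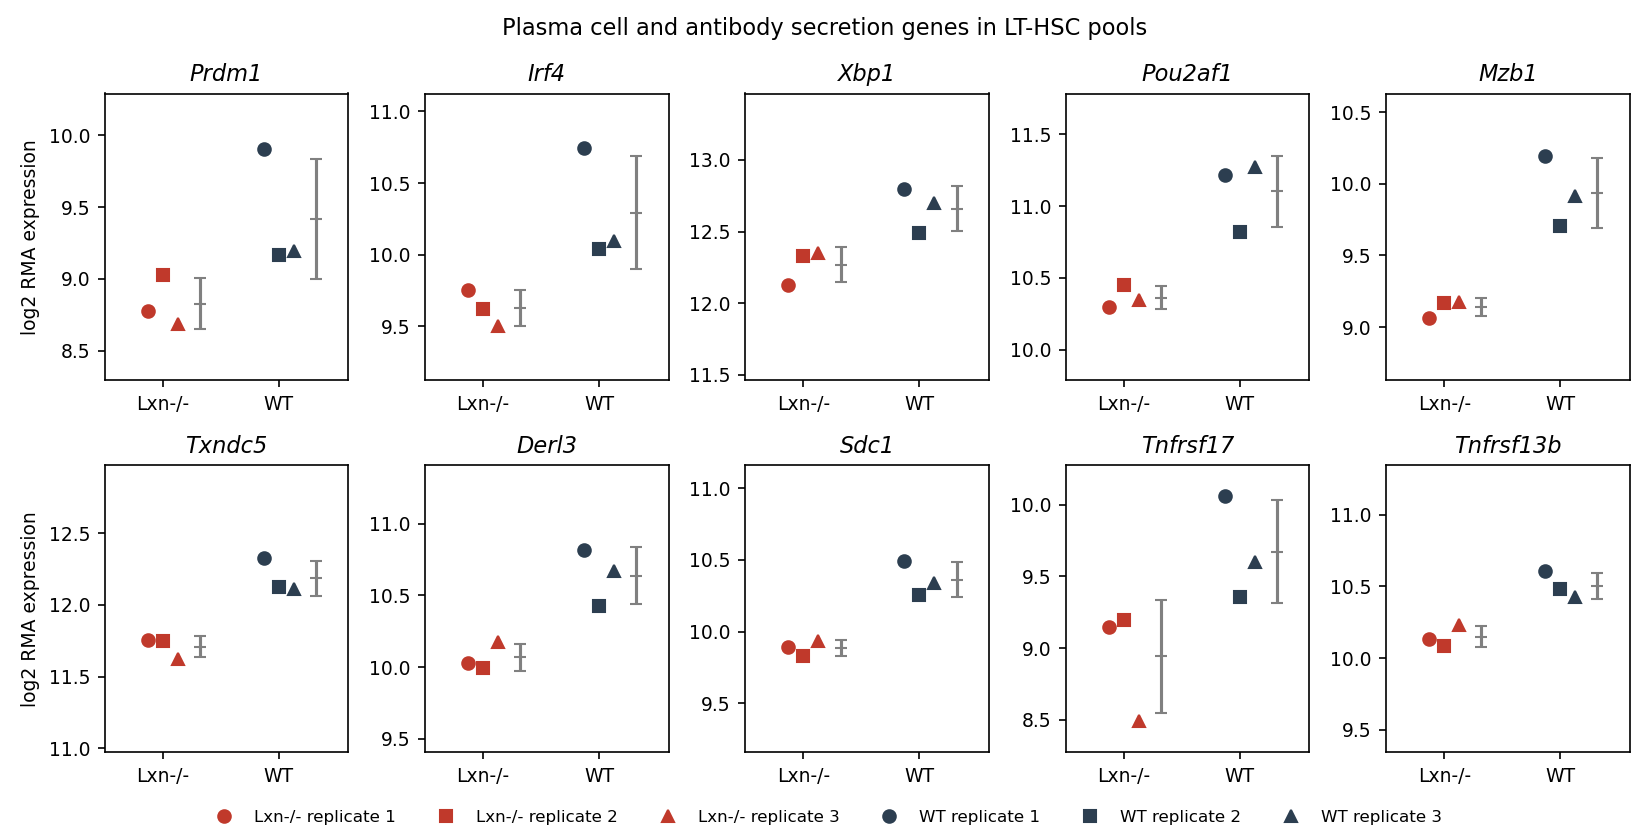
Log2 RMA expression of each gene in the 3 Lxn-/- pools (red, left) and the 3 WT pools (dark, right), with symbols for the replicate number and grey bars for mean ± SD (n = 3). Each panel spans 2 log2 units; all red points lie below all dark points, and WT replicate 1 is the highest point for 9 of the 10 genes.

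Among the transcription factors, Prdm1, whose product Blimp-1 represses the B cell program, had 8.77, 9.03 and 8.68 in Lxn-/- pools against 9.90, 9.17 and 9.19 in WT pools. WT replicate 1 stood 0.71 above the next WT pool, and the groups were only 0.14 apart, between Lxn-/- replicate 2 and WT replicate 2. The mean was 8.83 ± 0.18 in Lxn-/- and 9.42 ± 0.42 in WT (SD, n = 3 each), a difference of -0.59 (SE 0.20), which was -0.35 without WT replicate 1.

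Irf4, which encodes the interferon regulatory factor needed for plasma cells to form, had 9.76, 9.62 and 9.50 in Lxn-/- pools against 10.74, 10.04 and 10.10 in WT pools. Its pattern over the WT pools was that of Prdm1, with replicate 1 high and the other two close together. The mean was 9.63 ± 0.13 in Lxn-/- and 10.29 ± 0.39 in WT (SD, n = 3 each). The difference was -0.67 (SE 0.18), and -0.44 without WT replicate 1.

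Xbp1, the factor of the secretory program, had 12.13, 12.33 and 12.35 in Lxn-/- pools against 12.80, 12.49 and 12.70 in WT pools. Its groups were 0.14 apart, with means of 12.27 ± 0.12 in Lxn-/- and 12.66 ± 0.16 in WT (SD, n = 3 each) and a difference of -0.39 (SE 0.10). The active XBP1 protein is made only after the sensor IRE1 has spliced this transcript, and the probe set value does not separate spliced from unspliced RNA.

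Pou2af1, whose product OCA-B is a coactivator of octamer-binding factors, had 10.30, 10.45 and 10.34 in Lxn-/- pools against 11.22, 10.82 and 11.27 in WT pools. It was the only one of the 10 genes that was highest in WT replicate 3. The mean was 10.36 ± 0.08 in Lxn-/- and 11.10 ± 0.25 in WT (SD, n = 3 each), a difference of -0.74 (SE 0.12).

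Of the proteins of the endoplasmic reticulum, Mzb1, a helper of the chaperone GRP94 in antibody assembly, differed most. It had 9.06, 9.17 and 9.18 in Lxn-/- pools against 10.19, 9.71 and 9.91 in WT pools, and its groups were 0.53 apart, the widest gap among the 10 genes. The mean was 9.14 ± 0.06 in Lxn-/- and 9.94 ± 0.25 in WT (SD, n = 3 each), a difference of -0.80 (SE 0.12), or 1.74-fold.

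Txndc5, a protein disulfide isomerase, had 11.76, 11.75 and 11.62 in Lxn-/- pools against 12.33, 12.12 and 12.11 in WT pools. Both groups were tight, with means of 11.71 ± 0.08 in Lxn-/- and 12.19 ± 0.12 in WT (SD, n = 3 each) and a difference of -0.48 (SE 0.083). Derl3, which takes part in the export of misfolded proteins for degradation, had 10.03, 10.00 and 10.18 in Lxn-/- pools against 10.82, 10.43 and 10.67 in WT pools. Its means were 10.07 ± 0.10 in Lxn-/- and 10.64 ± 0.20 in WT (SD, n = 3 each), with a difference of -0.57 (SE 0.11).

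Among the surface proteins, the proteoglycan gene Sdc1 had 9.89, 9.83 and 9.94 in Lxn-/- pools against 10.49, 10.25 and 10.34 in WT pools. Its means were 9.88 ± 0.06 in Lxn-/- and 10.36 ± 0.12 in WT (SD, n = 3 each), with a difference of -0.48 (SE 0.080). Tnfrsf13b, which encodes TACI, had 10.13, 10.09 and 10.23 in Lxn-/- pools against 10.60, 10.48 and 10.43 in WT pools. Its means were 10.15 ± 0.07 in Lxn-/- and 10.50 ± 0.09 in WT (SD, n = 3 each), and its difference of -0.35 (SE 0.076) was the smallest of the 10.

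Tnfrsf17, which encodes BCMA, the receptor on which long-lived plasma cells depend, varied most between pools. It had 9.15, 9.19 and 8.49 in Lxn-/- pools against 10.06, 9.36 and 9.60 in WT pools. Lxn-/- replicate 3 was far below the other two, and WT replicate 2 was only 0.16 above the highest Lxn-/- pool. The mean was 8.94 ± 0.39 in Lxn-/- and 9.67 ± 0.36 in WT (SD, n = 3 each), a difference of -0.73 (SE 0.23), which was -0.50 without Lxn-/- replicate 3 and -0.54 without WT replicate 1.

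**Figure D2:**
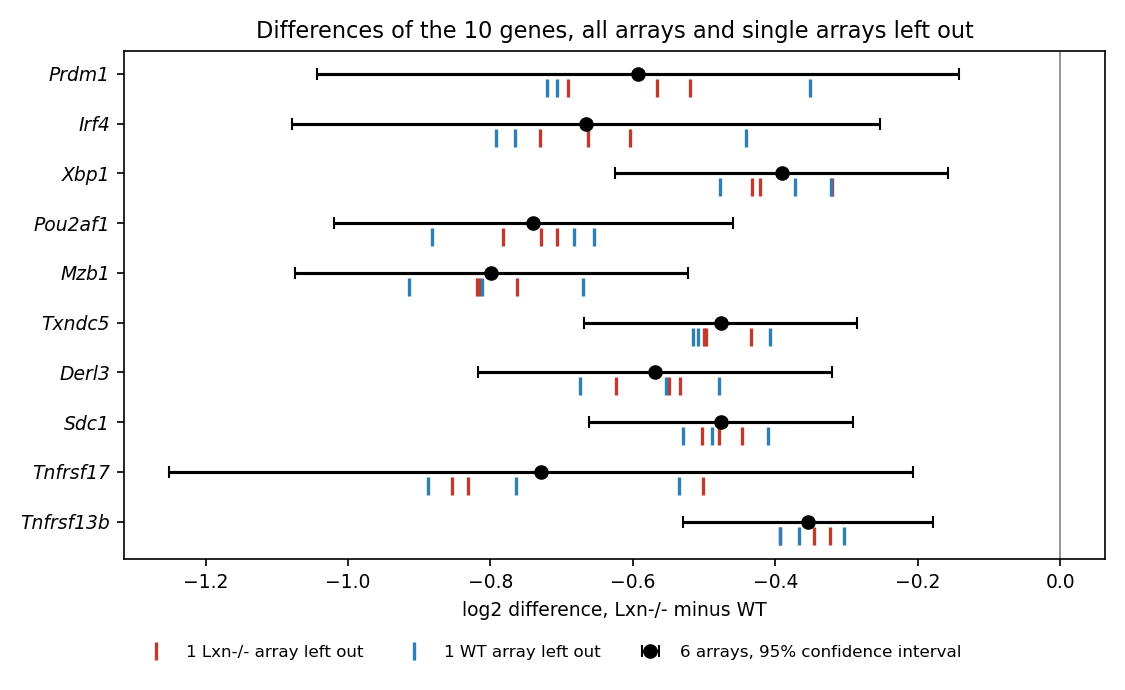
Log2 difference (Lxn-/- minus WT) of each gene with its 95% confidence interval from limma (black), and the difference when a single Lxn-/- array (red ticks) or WT array (blue ticks) is left out. All ticks lie below 0, as they must where the groups do not overlap. Prdm1, Irf4 and Tnfrsf17 have the widest intervals.

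How the pools of 1 genotype differ among themselves is another measure than the contrast that chose the genes, but it is not independent of that choice. High values in a WT pool enter both. The 10 genes also varied together, so the counts below are a description and not separate observations. WT replicate 1 was the highest WT pool for 9 of the 10 genes, against 30.7% of the 14040 genes above the background level. WT replicate 2 was the lowest WT pool for 8 of the 10, against 22.8%. The standard deviation was larger in WT than in Lxn-/- for 9 of the 10 genes, with Tnfrsf17 the exception, against 53.3% of genes above background. Its median over the 10 genes was 0.087 in Lxn-/- and 0.22 in WT, beside 0.088 in Lxn-/- and 0.094 in WT over the genes above background. The Lxn-/- pools showed no such shared order, as each of the 3 was the lowest of its genotype for 3 or 4 of the 10 genes.

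**Figure D3:**
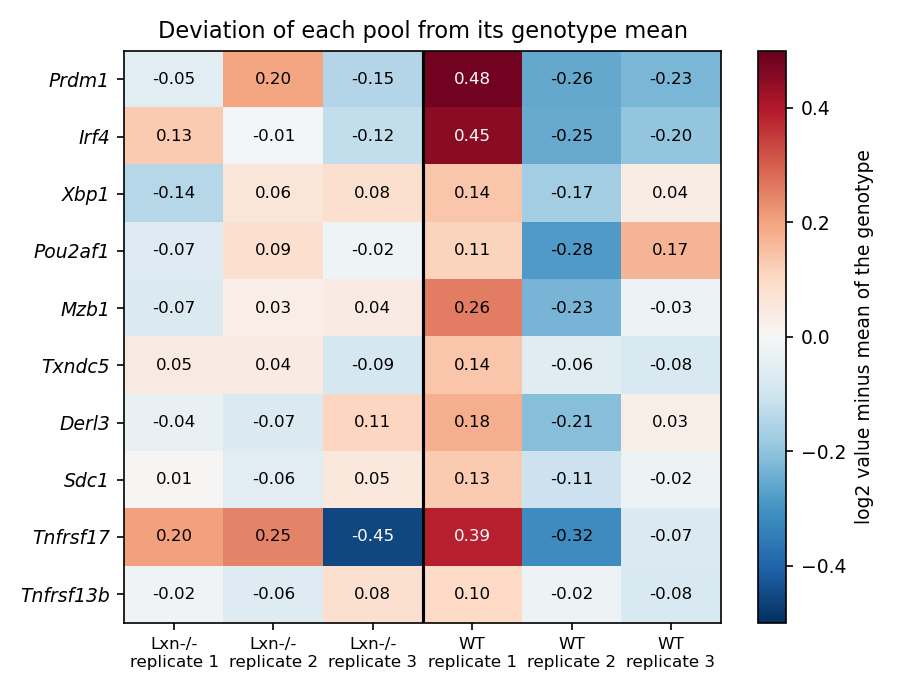
Log2 value of each gene (rows) in each pool (columns) minus the mean of that genotype, in red where above and blue where below. WT replicate 1 is above its genotype mean in all 10 rows and WT replicate 2 below it in all 10, while the Lxn-/- columns are mixed.

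After each genotype's mean was taken off, the 10 genes varied together over the 6 arrays, mostly through the shared order of the WT pools. In the Lxn-/- pools the genes were mixed. Txndc5 deviated there by 0.05, 0.04 and -0.09, and Derl3 by -0.04, -0.07 and 0.11. Pearson's r was above 0 for 43 of the 45 pairs, with a median of 0.61 and a range of -0.02 to 0.94. No such share over pairs of other genes is given beside it, so nothing is read from this count. The closest pairs were Irf4 with Txndc5 and Sdc1 with Derl3, both at 0.94, and the least related pair was Tnfrsf17 with Tnfrsf13b. The arrays of all genes are the same 6, so these values share every array and are a description only. The mean of the 10 genes, each centred on its own mean, was -0.29, -0.24 and -0.34 in Lxn-/- pools and 0.53, 0.10 and 0.24 in WT pools. WT replicate 2 was thus the WT pool nearest to the Lxn-/- pools, and WT replicate 1 the farthest.

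Of 14030 other genes above background, the 6 whose values followed that mean most closely over the 6 arrays were Mfsd4a, Sel1l, Rasgrp3, Tent5c, Atp6v1g2 and Hsp90b1, with Pearson's r from 0.983 to 0.998. These are the highest of very many correlations over few arrays, and they were not tested. The mean also holds the genotype contrast that chose the 10 genes, so genes that follow it are lower in Lxn-/- too. Mfsd4a, a gene of the major facilitator family of transporters, had 8.25, 8.30 and 8.21 in Lxn-/- pools against 8.87, 8.53 and 8.69 in WT pools. Rasgrp3, an activator of Ras proteins, had 9.07, 9.04 and 8.83 in Lxn-/- pools against 10.34, 9.51 and 9.82 in WT pools. Tent5c, a poly(A) polymerase, had 10.38, 10.47 and 10.29 in Lxn-/- pools against 11.29, 10.80 and 10.85 in WT pools. Hsp90b1, which encodes the chaperone GRP94, had 12.53, 12.56 and 12.48 in Lxn-/- pools against 12.82, 12.65 and 12.67 in WT pools. The likeness covers the shape of the profile over the arrays, not the exact order of the pools within a genotype. It does not cover the size of the difference either, which was -0.91 for Rasgrp3, -0.60 for Tent5c, -0.44 for Mfsd4a, -0.33 for Sel1l, -0.19 for Hsp90b1 and -0.08 for the proton pump gene Atp6v1g2.

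Other genes of plasma cells were listed with results of these data known. Of 20 listed, 19 were measured, and 0 passed limma's test in either direction. A lower mean in Lxn-/- was found for 17, where 56% of all genes lay below 0. The list median was -0.22 beside -0.01 over all genes. At an unadjusted p under 0.05 there were 7 lower and 0 higher, where the share over all probe sets was 2.43% lower and 1.47% higher. Slamf7, a surface receptor of plasma cells, had 9.70, 9.84 and 9.63 in Lxn-/- pools against 10.42, 10.05 and 10.43 in WT pools, a difference of -0.57 (SE 0.12). Ly6k, a member of the Ly6 family of surface proteins, differed by -0.36 (SE 0.068), with 8.25, 8.13 and 8.08 in Lxn-/- pools against 8.51, 8.52 and 8.51 in WT pools.

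Of the immunoglobulin constant chains and the J chain, 4 of 13 had a probe set of their own, and 0 passed in either direction. Jchain, the joining chain of secreted IgM and IgA, had 12.83, 12.90 and 12.81 in Lxn-/- pools against 13.33, 12.93 and 13.17 in WT pools, a difference of -0.30 (SE 0.10). Ighm, the constant region of IgM, had 11.60, 11.76 and 11.42 in Lxn-/- pools against 12.08, 11.83 and 12.01 in WT pools, a difference of -0.38 (SE 0.11). Ighm had 3 probe sets and Igha 2, and only the brightest of each is given here. Neither of the other two chains shared this separation. Igha, the constant region of IgA, had 13.56, 12.80 and 13.79 in Lxn-/- pools against 13.31, 13.30 and 13.65 in WT pools, and Ighg3, that of IgG3, had 9.25, 11.69 and 10.26 in Lxn-/- pools against 10.84, 10.99 and 11.13 in WT pools. The highest Igha value of all 6 was thus in an Lxn-/- pool, and Ighg3 ranged over 2.44 log2 units among the Lxn-/- pools. These 2 genes were chosen for mention after their values were seen.

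The secretory machinery that Xbp1 serves was examined by step, and 0 genes passed limma's test at any step. Over all genes 56% of differences lay below 0, and 2.43% of all probe sets were lower at an unadjusted p under 0.05. Degradation of misfolded proteins had a median of -0.08, and all 18 measured genes had a lower mean in Lxn-/-, 6 of them at an unadjusted p under 0.05, with differences from -0.33 to -0.01. Sel1l, the adaptor of the ubiquitin ligase of this pathway, had 11.46, 11.50 and 11.49 in Lxn-/- pools against 11.95, 11.70 and 11.80 in WT pools. Edem1, which selects misfolded glycoproteins, had 11.79, 11.80 and 11.72 in Lxn-/- pools against 12.22, 11.97 and 11.94 in WT pools. Chaperones and disulfide isomerases had a median of -0.07, with 15 of 23 lower and 8 higher, and 4 lower at an unadjusted p under 0.05. Pdia4 differed by -0.33 (SE 0.073) and Sdf2l1 by -0.28 (SE 0.082).

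**Figure D4:**
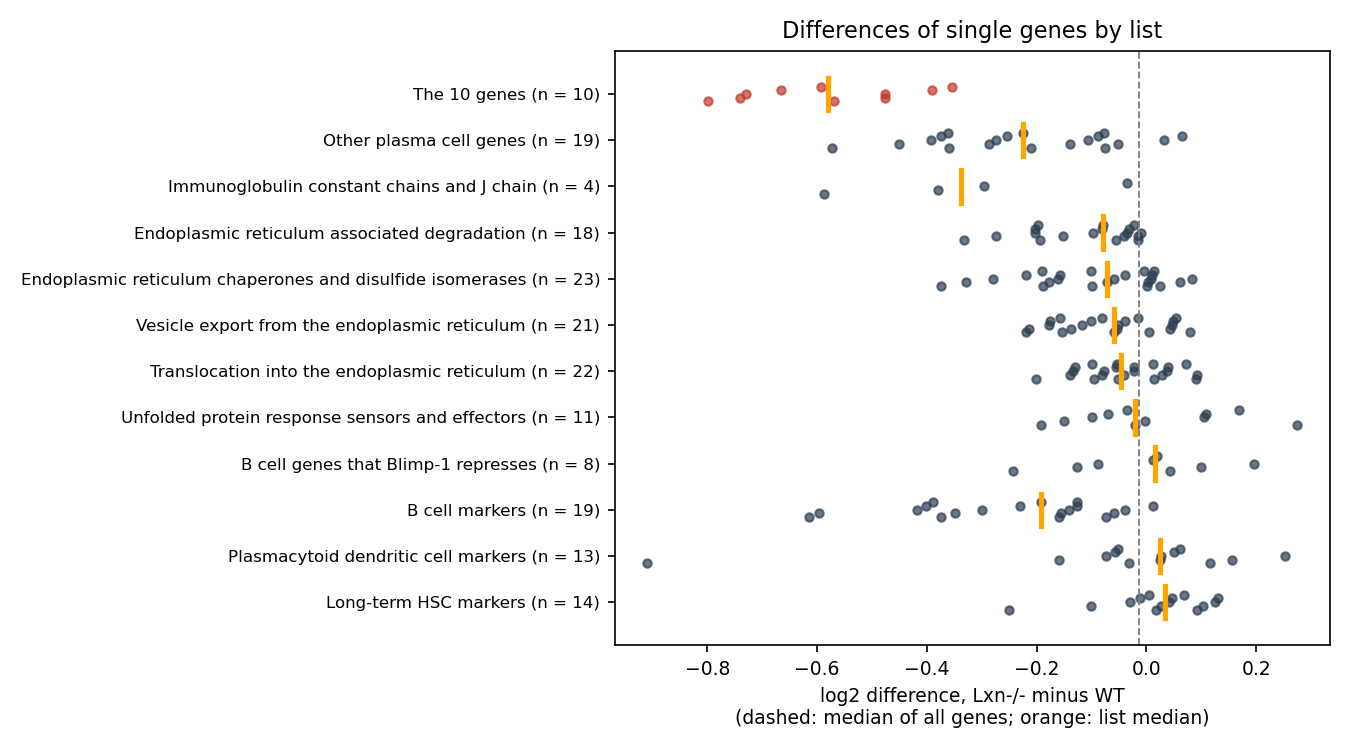
Log2 difference (Lxn-/- minus WT) of each measured gene by list, with an orange bar at the median of the list and a dashed line at -0.01, the median of all genes. The 10 genes (red) run from -0.80 to -0.35, and the lists of the secretory machinery have medians between -0.08 and -0.02.

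Genes for translocation into the endoplasmic reticulum had a median of -0.05, with 14 of 22 lower, and those for vesicle export had one of -0.06, with 15 of 21 lower, beside 56% of all genes. With single arrays left out, the translocation median ran from -0.054 to -0.0056 (without Lxn-/- replicate 1). The vesicle export median ran from -0.10 (without WT replicate 2) to -0.04 (without WT replicate 3). The mean of the vesicle export genes ran from 10.55 to 10.58 in Lxn-/- pools and from 10.60 to 10.64 in WT pools, without overlap. In each, 0 genes were below an unadjusted p of 0.05. Spcs2, a signal peptidase subunit, differed by -0.14 (SE 0.071), its partner Spcs3 by -0.20 (SE 0.12), the cargo receptor gene Lman1 by -0.22 (SE 0.095) and the coat protein gene Sec23b by -0.21 (SE 0.099). Sensors and effectors of the unfolded protein response had a median of -0.02, with 7 of 11 lower, and Creb3l2, a membrane-bound transcription factor, differed by -0.19 (SE 0.079) and the stress phosphatase subunit gene Ppp1r15a by 0.27 (SE 0.13).

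Partners and targets of the transcription factors and of the receptors were examined next. Of 8 B cell genes that Blimp-1 represses, 3 were lower and 5 higher in Lxn-/-, with a median of 0.02, and 0 passed. Bcl6, the repressor that Blimp-1 opposes in germinal centre B cells, differed by 0.20 (SE 0.11), with overlapping groups, and Spib, an ETS factor, by -0.24 (SE 0.086), with 8.76, 8.68 and 8.84 in Lxn-/- pools against 9.03, 8.86 and 9.12 in WT pools. All 4 measured factors that work with OCA-B had a lower mean in Lxn-/-, where 56% of all genes lay below 0. Their differences ran from -0.24 (Spib) to -0.01, with a median of -0.03. The mean of this list ran from 9.49 to 9.52 in Lxn-/- pools and from 9.54 to 9.61 in WT pools. Only 1 of the 4, Spib, had all Lxn-/- values below all WT values, and the list mean without it was not computed. The octamer-binding factor gene Pou2f2 differed by -0.05 (SE 0.075). Tnfrsf13c, the third BAFF receptor gene, had 9.27, 10.49 and 10.55 in Lxn-/- pools against 10.18, 10.43 and 11.05 in WT pools, and the BAFF gene Tnfsf13b differed by 0.15 (SE 0.12). Both pairs of groups overlapped. Those of Tnfrsf17 and Tnfrsf13b did not, but these receptor genes were chosen for being lower in Lxn-/-, so nothing is read from the contrast.

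Markers of other cells and of handling were set beside the 10 genes, and their part in the differences was not tested. B cell markers had 18 of 19 members lower in Lxn-/- with a median of -0.19, where 56% of all genes lay below 0. At an unadjusted p under 0.05 there were 4 of the 19 lower and 0 higher, beside 2.43% of all probe sets lower, and 0 passed limma's adjusted threshold. Of the 19, 16 were above the background level, with Fcer2a, Cr2 and Rag2 below it. The mean of the list ran from 8.87 to 8.94 in Lxn-/- pools and from 8.93 to 9.31 in WT pools. WT replicate 3 was the highest pool for this list and WT replicate 1 for the mean of the 10 genes. The B cell surface gene Cd79b differed by -0.30 (SE 0.11), and Fcrla, an Fc receptor-like protein gene of B cells, had 9.20, 9.01 and 8.95 in Lxn-/- pools against 9.92, 9.39 and 9.63 in WT pools. The other two of the 4, named after their values were seen, were Cd79a, a signalling chain of the B cell receptor, at -0.61 (SE 0.23), and Ms4a1, which encodes CD20, at -0.37 (SE 0.15).

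Plasmacytoid dendritic cells, which also have a large secretory apparatus, had 6 of 13 markers lower and 7 higher, with a median of 0.02. The mean of the list ran from 8.69 to 8.86 in Lxn-/- pools and from 8.74 to 8.89 in WT pools. Ly6d, which lymphoid progenitors share, was the member of lowest p at -0.91 (SE 0.22), and Mctp2 differed by 0.25 (SE 0.12). Of the LT-HSC markers 10 of 14 were higher in Lxn-/-, beside 8765 of all 19938 genes, the median being 0.03. The mean of this list ran from 10.42 to 10.60 in Lxn-/- pools and from 10.39 to 10.54 in WT pools. The members of lowest p were Pdzk1ip1 at -0.25 (SE 0.15) and Meis1 at 0.13 (SE 0.082).

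In the lists that follow, 0 genes passed limma's adjusted threshold, and the list means of the 2 genotypes overlapped, although most members of several lists lay on 1 side. Dendritic cell and macrophage markers were split, with 8 lower and 8 higher and a median of 0.01, and their mean ran from 9.23 to 9.62 in Lxn-/- pools and from 9.43 to 9.55 in WT pools. In this list 2 of 16 genes were lower and 0 higher at an unadjusted p under 0.05. Over all probe sets these shares were 2.43% and 1.47%. Both genes had all Lxn-/- values below all WT values, as did 5.49% of all genes, and 1 other member had all Lxn-/- values above. B cells also express these 2 genes, and which cells gave the signal was not tested. Cd74, whose product escorts MHC class II molecules, had 11.92, 12.09 and 12.00 in Lxn-/- pools against 12.45, 12.23 and 12.55 in WT pools, a difference of -0.41 (SE 0.096). Ctss, the protease cathepsin S that trims this escort, had 10.34, 10.15 and 10.07 in Lxn-/- pools against 10.88, 10.44 and 10.69 in WT pools, a difference of -0.49 (SE 0.12).

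All 8 measured erythroid markers had a lower mean in Lxn-/-, with a median of -0.26, where 56% of all genes lay below 0. Their mean ran from 9.69 to 10.07 in Lxn-/- pools and from 9.92 to 10.31 in WT pools, and the median was -0.10 without either Lxn-/- replicate 3 or WT replicate 3. The heme synthesis gene Alas2 differed by -0.27 (SE 0.12), the 1 member with an unadjusted p under 0.05, and Trim10 by -0.24 (SE 0.11). Immediate early genes, which respond to handling, had 15 of 16 members higher, beside 8765 of all 19938 genes, with a median of 0.28. At an unadjusted p under 0.05, 3 of them were higher, beside 1.47% of all probe sets. Their mean ran from 11.42 to 11.62 in Lxn-/- pools and from 10.84 to 11.49 in WT pools, and the median was 0.14 without WT replicate 3. Junb, a subunit of AP-1, differed by 0.39 (SE 0.13) and the antiproliferative gene Btg2 by 0.35 (SE 0.14).

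Of all 19938 genes, 8765 were higher in Lxn-/-, a share to set beside each count below. Neutrophil markers had 11 of 13 members higher, with a median of 0.48 and 0 at an unadjusted p under 0.05. Their mean varied widely, from 10.00 to 11.65 in Lxn-/- pools and from 9.47 to 11.32 in WT pools, and the median was -0.18 without WT replicate 3 and 0.015 without Lxn-/- replicate 3. The G-CSF receptor gene Csf3r differed by 0.18 (SE 0.13) and the granule gene S100a8 by 0.75 (SE 0.76). T and NK cell markers had 9 of 12 members higher, with a median of 0.06, and their mean ran from 7.78 to 8.40 in Lxn-/- pools and from 7.80 to 8.05 in WT pools. The NK cell receptor gene Klrb1c differed by 0.31 (SE 0.26), and Cd3d, a chain of the T cell receptor complex, by 0.13 (SE 0.17), and Cd3d and Gzma were below the background level. Lineage markers and antigens of the sort had 7 of 9 members higher, with a median of 0.07, and their mean ran from 9.79 to 10.07 in Lxn-/- pools and from 9.76 to 9.92 in WT pools. Of these, Ptprc, which encodes CD45, differed by 0.10 (SE 0.093) and the IL-7 receptor gene Il7r by -0.18 (SE 0.25).

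**Figure D5:**
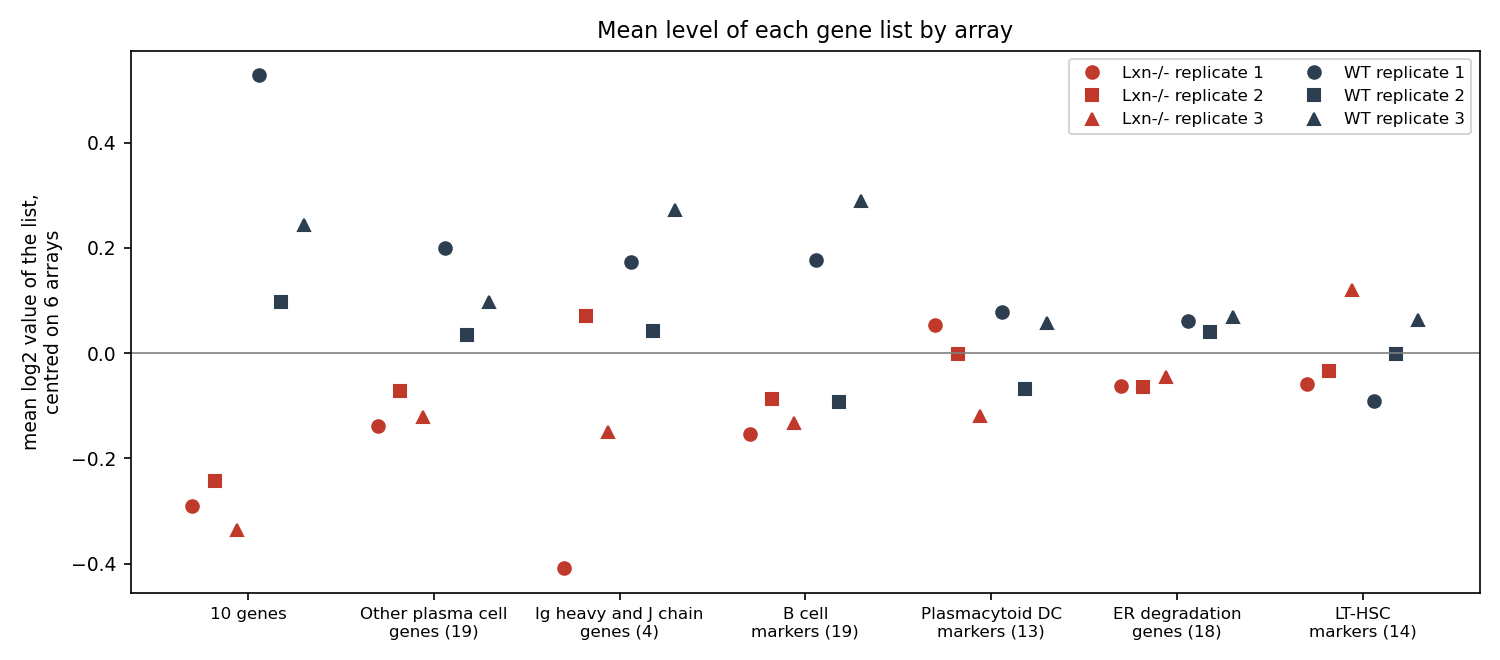
Mean log2 value of 7 of the gene lists in each array, centred on the 6 arrays, with Lxn-/- pools in red left of WT pools in dark and symbols for the replicate number. Among these 7, the groups separate for the 10 genes, for other plasma cell genes and for degradation genes of the endoplasmic reticulum (ER), and overlap for immunoglobulin, B cell, plasmacytoid dendritic cell (DC) and LT-HSC lists.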

How the data were processed

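The values are log2 expression values of Affymetrix mouse Gene ST arrays of mouse LT-HSC pools, deposited by the authors after RMA normalization (robust multi-array average), per the series' design text. Partek 6.0 is named beside RMA in the submitters' processing notes. Total RNA (100 ng per array) was labelled with biotin, per the labels' protocols. For the background step and the probe set version, the labels give nothing. Array medians ran from 7.77 to 7.91, and precision is limited by the small number of arrays.

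GEO's platform annotation paired 23410 of 35557 probe sets with symbols, 1621 of them with several, which name no gene here. Each gene was represented by its brightest probe set by the mean of 6 arrays. Lxn-/- was set against WT in limma 3.58.1 under R 4.3.3 (lmFit and eBayes, no covariates, two-sided, Benjamini-Hochberg over all 23410), as tested on simulated data. Differences are Lxn-/- minus WT, SD is over 3 arrays and SE is limma's. The 10 genes and all lists (251 of 280 listed genes measured) were chosen with earlier results of these data known. From each list the text names up to 4 passing genes or, with none passing, the 2 of lowest unadjusted p, and 6 genes most like the mean of the 10. Other settings were single arrays left out, a replicate block, quantile normalization, a common median, array weights, no dim probe sets, a trended robust prior and the mean of all probe sets of a gene. The replicate numbers were not taken as pairs, because nothing in the labels says that they mark a shared litter, batch or day. The deviations of same-numbered arrays correlated at 0.46, -0.13 and -0.11, and those of differently numbered arrays at -0.40 to 0.43, so the correlations do not decide it.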

Additional observations from a re-analysis of the deposited data

How the results depend on the processing

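All 10 genes were lower in Lxn-/- under each of the 11 other settings run on them, and each single gene's difference stayed within 1 SD of its value from all 6 arrays. The sign was bound to hold with arrays left out, weighted or blocked, because the groups of each gene did not overlap. Averaging probe sets could change nothing, because each gene had 1. A common median shifted all genes alike and further below 0, so it could not change the sign either. Only quantile normalization could have changed it. The median difference of the 10 genes, -0.58, ran from -0.70 (without WT replicate 2) to -0.43 (without WT replicate 1) when single arrays were left out. Without WT replicate 1 it moved by more than 1 SD of the pool medians within a genotype, which was 0.14. It was -0.47 with array weights and -0.63 with a common median. Leaving out WT replicate 1 moved the differences of Prdm1 and Irf4 by over 1.5 times, to -0.35 and -0.44. With the replicate block the median was -0.58, as in a balanced design it must be, 0 probe sets passed as without it, and 1173 instead of 914 had an unadjusted p under 0.05. Under all 12 other settings of the fit 0 probe sets passed limma's adjusted threshold, with a lowest adjusted p of 0.134 without WT replicate 2, of 0.553 with a common median and of higher values otherwise. The count at an unadjusted p under 0.05 ran from 611 (without Lxn-/- replicate 1) to 1556 (without WT replicate 1) and was 1807 with array weights and 526 without dim probe sets, where fewer were tested. The share of these that were lower was 62.4%, and 78.7% with quantile normalization, 83.4% with a common median, 51.5% without Lxn-/- replicate 2 and 49.7% without WT replicate 1. With a common median 74.4% of all genes lay below 0. The median of the immunoglobulin and J chain list, -0.34, ran from -0.43 to -0.21 with single arrays left out, and was -0.25 with the mean of all probe sets of a gene. That of T and NK cell markers, 0.06, ran from -0.071 to 0.14 with single arrays left out. The cause of these shifts was not tested. The other plasma cell genes ran from -0.26 to -0.13, the degradation genes from -0.10 to -0.06 and the B cell markers from -0.31 to -0.14. The translocation genes ran from -0.054 to -0.0056, and the medians of 9 lists (Blimp-1 targets, BAFF and APRIL partners, unfolded protein response, plasmacytoid dendritic cell, dendritic cell and macrophage, T and NK cell, neutrophil, LT-HSC and sort gate genes) had different signs with different single arrays left out.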

Other observations

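With each genotype's mean taken off, the 6 other genes above background whose deviations followed those of the 10 genes most closely over the 6 arrays were Snora69, Atp6v1e2, Adamtsl4, Togaram2, Tsen15 and Mfsd4a, with Pearson's r from 0.987 to 0.999 among 14030 genes. As the highest of so many correlations over 6 arrays, these values were not tested. Only Mfsd4a was also among the 6 found without taking off the genotype means. The small nucleolar RNA Snora69 had 9.25, 9.32 and 9.21 in Lxn-/- pools and 9.38, 8.81 and 8.99 in WT pools, so it shared the order of the WT pools with the 10 genes, while its difference of 0.20 had the opposite sign. The tRNA splicing gene Tsen15 differed by -0.06 and the matrix gene Adamtsl4 by -0.13.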
